A study of Mus musculus with 6 samples.

Results

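The genes described here are cortactin (Cttn) and 9 other genes of actin remodelling, Pstpip2, Actb, Cfl1, Arpc2, Rhoa, Was, Wasf2, Coro1a and Capg, in regulatory T cells (Treg) that lack the deacetylase HDAC6. They were taken from a list of names. The list was chosen by earlier measured values of the same knockout against wild-type contrast, in which Pstpip2 and 1 probe set of Actb stood out, so the differences of these genes are given as a description, with no test. Their 10 symbols matched 24 of the 22690 probe sets on the array, 21 ordinary ones and 3 control probe sets for Actb, where a probe set is a group of short oligonucleotides that reads 1 transcript region. Transcript levels came from CD4+CD25+ Treg of HDAC6 knockout mice (3 arrays) and of wild-type C57BL6 mice (3 arrays), with the cells isolated by magnetic separation and biotin-labelled RNA amplified for 1-colour arrays. The strain was given for the wild type only. The kind of HDAC6 allele, the age and sex of the mice, and whether a sample was 1 mouse or a pool were not given in the sources used here, and no treatment was named for either group. Values are log2 signals after RMA (robust multi-array averaging), so a difference of 1 is a 2-fold change. Differences are knockout minus wild type with their standard error (SE).

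Actin filaments grow from monomers that nucleators join, and they are branched, capped, severed and recycled by further proteins. Branches are made by the ARP2/3 complex, which WASP (from Was) and WAVE2 (from Wasf2) activate and which cortactin binds and stabilises at the branch. Cortactin is also a protein substrate of HDAC6: its acetylated form binds filaments less well, and deacetylation by HDAC6 restores binding and supports cell movement. T cells use this machinery to form the immunological synapse and to migrate. The arrays measured transcripts, so they hold no reading of cortactin protein or of its acetylation.

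Array medians lay between 6.22 and 6.27. The single probe set of Hdac6 read 7.54, 7.86 and 7.64 in the knockout arrays, against 8.54, 8.23 and 8.42 in the wild-type arrays. Every knockout array was lower, and the difference was -0.71 (SE 0.11). By limma this difference did not pass an adjusted p of 0.05 (adjusted p = 0.0875 over all probe sets). The sources used here did not say whether this probe set lies inside the deleted part of the gene. The arrays held no other cell type for comparison, so the markers of T cells and Treg describe the label and do not test it. All 10 markers of T cells and Treg were measured, and their mean level was 10.58 to 10.65 in knockout arrays and 10.55 to 10.64 in wild-type arrays, with Foxp3, the lineage factor of Treg, at 10.18, 10.40 and 10.38 against 10.25, 10.21 and 10.33. Plasma cell markers stood apart between the genotypes: 7 of 8 were measured, all 7 were higher in the knockout, and their mean level was 9.71 to 10.17 in knockout arrays and 9.14 to 9.32 in wild-type arrays. For 5 of them the genotypes did not overlap. Igha was past an adjusted p of 0.05 by limma (difference 1.81, SE 0.14, adjusted p = 0.0105 over all genes). It read 14.27, 14.27 and 14.36 in knockout arrays, against 12.18, 12.58 and 12.70 in wild-type arrays. The part of the plasma cell markers in the differences of the actin genes was not tested. RNA of sorted cells was read in bulk, so fewer cells of a type and less RNA per cell cannot be told apart.

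Most of the 10 genes differed little between the genotypes, and 2 of them, Pstpip2 and Actb, held the large differences. By limma with Benjamini-Hochberg adjustment over all 22626 tested probe sets, 2 of the 21 ordinary probe sets were past an adjusted p of 0.05, 1 of Actb higher and 1 of Pstpip2 lower in the knockout, beside 0.194% of all probe sets. Because these values chose the genes, nothing is read from that count. The genotypes did not overlap for 9 of the 21 (4 higher and 5 lower in the knockout), beside 17.2% of all probe sets. Nothing is read from this count either, since the same values chose the genes and every Pstpip2 probe set is among the 9. The median difference of the 21 was -0.01 and their median size was 0.10, against 0.00 and 0.09 over all probe sets. The count of 2 became 0 without knockout replicate 1, 2 or 3 or without wild type replicate 2 or 3, and 3 without wild type replicate 1. In the 15 alternative fits, where a filter kept them, no probe set without overlap changed sign.

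**Figure D1:**
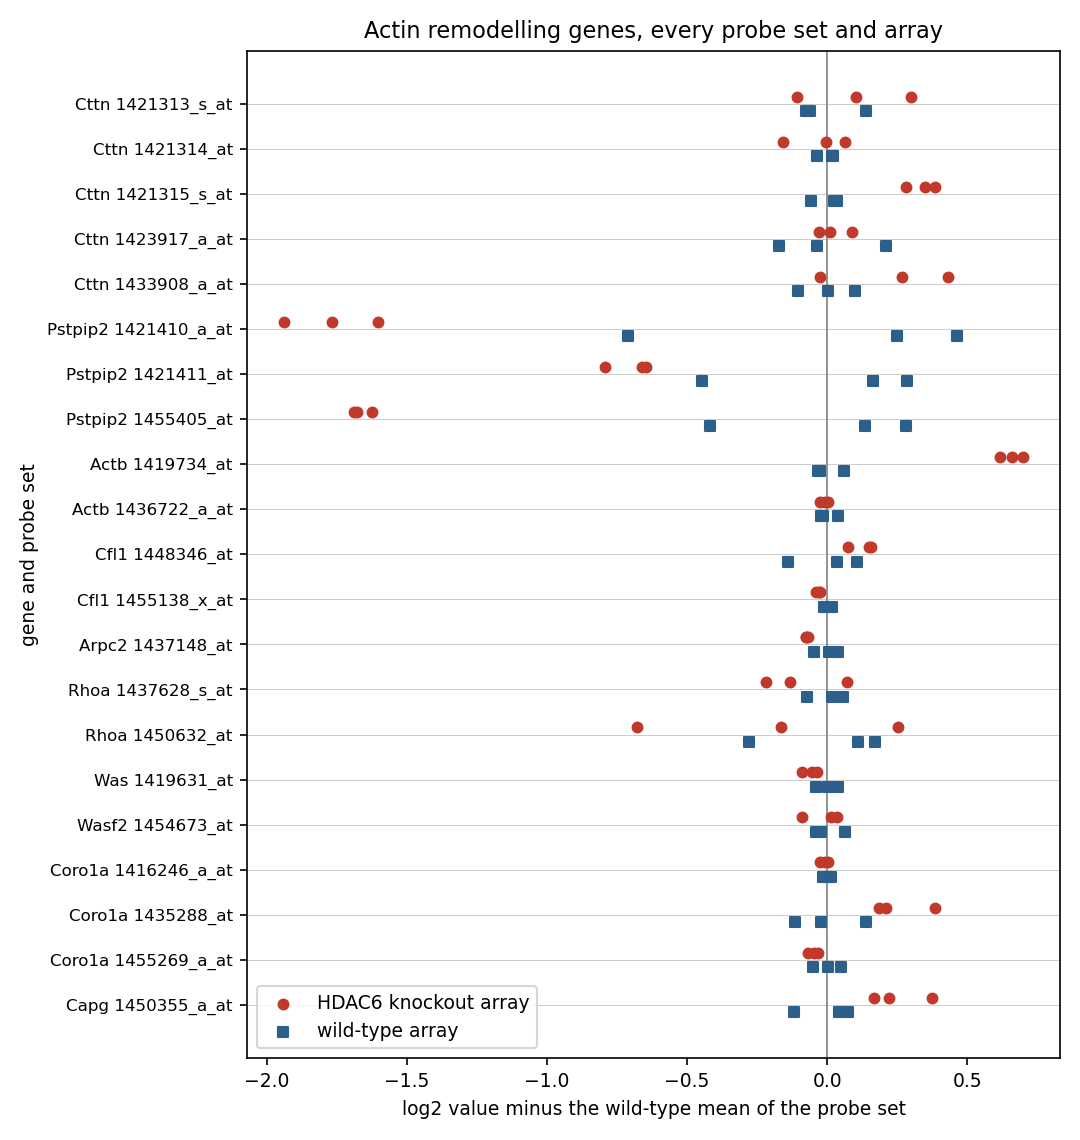
Log2 value of each array minus the wild-type mean of the same probe set (horizontal axis), for the 21 ordinary probe sets of the 10 genes (rows). Circles are the 3 HDAC6 knockout arrays and squares the 3 wild-type arrays; the 3 Pstpip2 probe sets lie furthest left and Actb 1419734_at furthest right, while most other rows stay within 0.5 of the line at 0.

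Cortactin transcript gave no difference that its probe sets shared. The brightest of its 5 probe sets, 1423917_a_at, read 6.12, 6.08 and 6.19 in knockout arrays, against 5.93, 6.07 and 6.32 in wild-type arrays. The knockout values lay inside the wild-type range, and the difference was 0.02 (SE 0.11, 95% interval -0.23 to 0.27). The interval spans changes of Cttn in either direction, and its sign turned in 2 of 15 alternatives.

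The other Cttn probe sets were dimmer, and all but 1421314_at had a higher mean in the knockout. The next, 1433908_a_at, read 5.66, 5.21 and 5.50 in the knockout, against 5.33, 5.24 and 5.13 in wild type, with overlap and a difference of 0.22 (SE 0.12, 95% interval -0.07 to 0.52). Probe set 1421313_s_at differed by 0.10 (SE 0.12) and 1421314_at by -0.03 (SE 0.08), both with overlap. Only 1421315_s_at separated the genotypes: it read 4.11, 4.18 and 4.22 in knockout arrays, against 3.77, 3.86 and 3.87 in wild-type arrays, a difference of 0.34 (SE 0.07, 95% interval 0.18 to 0.50). That probe set sits near the floor of the arrays, with 78.0% of all probe sets brighter than it, and the arrays' lower quartiles lay at 4.14 to 4.25. Without detection calls, a transcript is not established at such a level. Over the 6 arrays the correlations among the 5 Cttn probe sets ran from -0.71 to 0.61 (Pearson's r).

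Hcls1 encodes HS1, the relative of cortactin that blood cells use in its place at the ARP2/3 complex, and it was taken up as a comparison. It read 9.38, 9.30 and 9.19 in knockout arrays, against 9.46, 9.29 and 9.22 in wild-type arrays. The genotypes overlapped, and the difference of -0.03 (SE 0.09) did not pass (adjusted p = 0.926 over all genes). A level of 1 probe set cannot be set against that of another, so the arrays do not say which of Cttn and Hcls1 was more abundant.

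Pstpip2 encodes an F-BAR protein that binds membranes and actin-associated partners and in mice causes autoinflammatory bone disease, driven by macrophages and neutrophils, when lost. It was lower in the knockout at each of its 3 probe sets. Probe set 1455405_at, the brightest, read 5.069, 5.015 and 5.003 in knockout arrays, against 6.28, 6.98 and 6.83 in wild-type arrays. Every knockout array lay below every wild-type array, and the knockout arrays were far closer to one another than the wild-type arrays were (SD 0.04 against 0.37, n = 3 each). The difference was -1.66 (SE 0.17, 95% interval -2.07 to -1.26), a 3.17-fold lower signal in the knockout.

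The second Pstpip2 probe set, 1421410_a_at, read 4.23, 4.39 and 4.06 in the knockout, against 5.28, 6.46 and 6.24 in wild type. It gave nearly the same size, -1.77 (SE 0.29), or 3.41-fold, again without overlap. The third and dimmest, 1421411_at, read 3.44, 3.29 and 3.42 against 3.63, 4.36 and 4.25, a difference of -0.70 (SE 0.18). In all 3 probe sets wild type replicate 1 was the lowest wild-type array, and in each it still stood above the knockout arrays. Over the 6 arrays Pearson's r between the 3 probe sets was 0.94 to 0.99, values that hold the gap between the genotypes, and the knockout arrays took a different order in each. The knockout values of 1421411_at and 1421410_a_at were near or below the arrays' lower quartiles, where RMA compresses differences, so the fold sizes there may be understated.

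**Figure D2:**
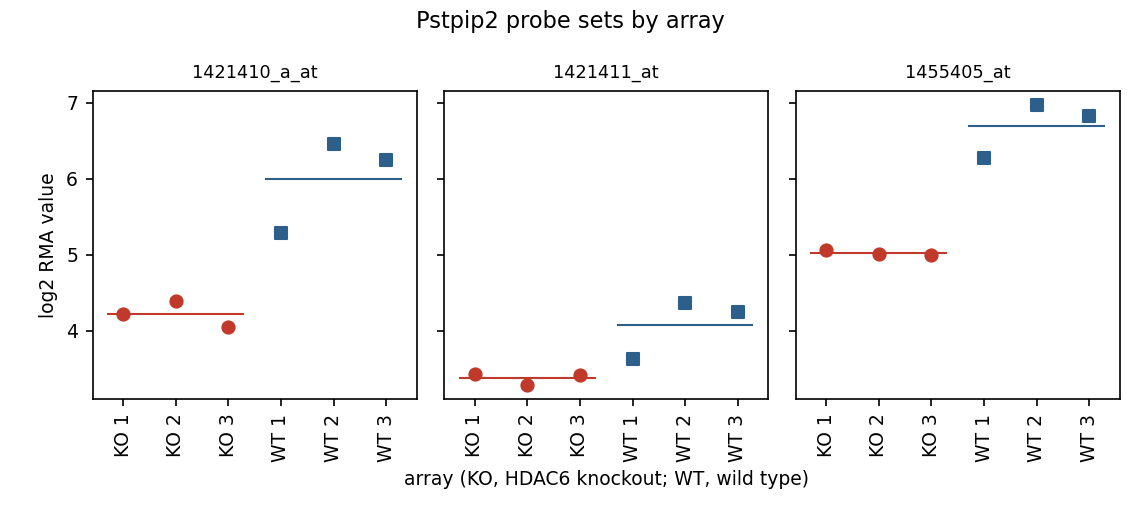
Log2 RMA value of the 3 Pstpip2 probe sets (panels) in each HDAC6 knockout array (circles) and wild-type array (squares); lines are group means. In each panel all 3 knockout arrays lie below all 3 wild-type arrays, and wild type replicate 1 is the lowest of its group.

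Because Pstpip2 is best known from myeloid cells, markers of other cell types are given beside it. Of 10 granulocyte and monocyte markers 9 were measured, 5 higher and 4 lower, and none passed. The 4 lower ones, S100a8, S100a9, Fcgr3 and Lyz2, differed by -0.75, -0.74, -0.57 and -0.45. The 5 higher ones differed by 0.02 to 0.35, and the genotypes overlapped for all 9. The mean level of the 9 was 5.24 to 5.82 in knockout arrays and 5.52 to 6.40 in wild-type arrays, which overlap. S100a8, an abundant neutrophil gene, read 6.22, 8.05 and 7.74 in knockout arrays, against 7.47, 9.75 and 7.05 in wild-type arrays. The genotypes overlapped, and wild type replicate 2 was the highest array. Of 10 macrophage and dendritic cell markers 9 were measured, 3 higher and 6 lower, and none passed. H2-Eb1, an MHC class II gene, and Mrc1, a macrophage receptor gene, were lower without overlap (-0.30 and -0.21). The list stood at mean levels of 6.60 to 6.85 in knockout arrays and 6.66 to 6.91 in wild-type arrays. Of 7 markers of NK and innate-like lymphocytes, all 6 measured were lower in the knockout, as Pstpip2 was, and none passed. Zbtb16, the defining factor of innate-like T cells, read 4.50, 4.71 and 5.60 in knockout arrays, against 6.20, 6.64 and 6.52 in wild-type arrays (difference -1.51, SE 0.28, adjusted p = 0.113). The other 5 lay between -0.18 and -0.05 with overlap, so Zbtb16 carries most of the list's shift. The mean level of the 6 markers was 6.16 to 6.63 in the knockout and 6.56 to 6.78 in wild type. The part of these markers in the Pstpip2 difference was not tested.

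Genes that lie beside Pstpip2 differed little. Among the 10 nearest measured genes, 5 on each side and chosen after values were seen, 2 were higher and 8 lower in the knockout, between -0.19 and 0.07. None of them passed (lowest adjusted p = 0.381). The genes nearest in pattern over the 6 arrays to probe set 1455405_at, among 10381 probe sets at or above the median level, were F8a (r = 0.993), Npc2 (r = 0.992) and Rps14 (r = 0.992), with differences of -0.26, -0.16 and -0.10. All 6 arrays enter each r, genotype included, so these genes share the separation of the genotypes and the low wild type replicate 1, at a much smaller size. For Cttn 1423917_a_at the nearest were Klrd1 (r = 0.992), Hexdc (r = 0.992) and Ginm1 (r = 0.981), with differences of 0.10, 0.03 and 0.02.

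Pstpip1, the paralogue of Pstpip2 in T cells that binds WASP, differed little. It read 9.73, 9.83 and 9.85 in knockout arrays, against 9.81, 9.78 and 9.92 in wild-type arrays, with overlap and a difference of -0.03 (SE 0.07, adjusted p = 0.925 over all genes). Its 95% interval, -0.20 to 0.15, does not reach the differences of the Pstpip2 probe sets. Of the 10 listed F-BAR proteins and partners 8 were measured, 4 higher and 4 lower, and 0 passed. Ptpn12, a phosphatase that works with the PSTPIP adaptors, differed by -0.14 (SE 0.08, adjusted p = 0.585).

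Actb encodes β-actin, the main non-muscle actin and a common loading standard, and its probe sets disagreed. Probe set 1419734_at read 13.32, 13.36 and 13.40 in knockout arrays, against 12.68, 12.77 and 12.67 in wild-type arrays. All knockout arrays were higher, with a difference of 0.66 (SE 0.07, 95% interval 0.50 to 0.81), or 1.58-fold. Probe set 1436722_a_at read 14.02, 14.01 and 13.99 in the knockout, against 14.05, 14.00 and 14.00 in wild type. There the genotypes overlapped and the difference was -0.01 (SE 0.06, 95% interval -0.16 to 0.14), an interval that lies wholly below that of 1419734_at.

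The array also carries control probe sets placed at the 3′ end, the middle and the 5′ end of Actb. The 3′ set read 13.99, 13.95 and 13.92 in the knockout, against 14.00, 13.99 and 13.96 in wild type. The middle and 5′ sets overlapped between genotypes in the same way, and the 3 differences were -0.03, -0.02 and -0.03 (SE 0.06, 0.07 and 0.07). Over the 6 arrays the 4 probe sets other than 1419734_at had r of 0.68 to 0.95 between them, whereas 1419734_at had r of -0.55 to -0.30 with them. All Actb sets other than 1419734_at had values within 1 log2 unit of the arrays' highest (14.40 to 14.51). Whether signals were compressed at that level was not tested. Probe positions were not used here, so which stretch of the transcript 1419734_at reads cannot be stated, and 1 of 5 probe sets does not fix the direction for the gene.

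**Figure D3:**
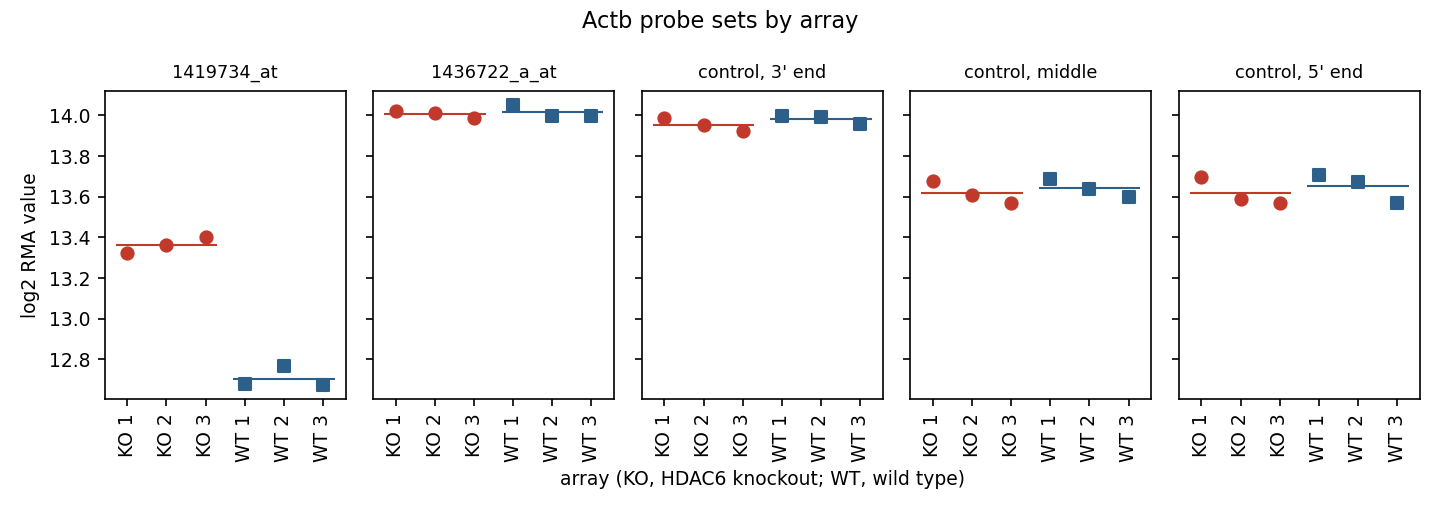
Log2 RMA value of the 5 Actb probe sets (panels: 2 ordinary sets and the 3 control sets along the transcript) in each HDAC6 knockout array (circles, KO) and wild-type array (squares, WT); lines are group means. The genotypes separate in 1419734_at and overlap in the other 4 panels.

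The control sets also give a reading of RNA integrity and labelling, since a shorter product loses 5′ signal first. The 3′ minus 5′ distance for Actb was 0.29, 0.37 and 0.35 in knockout arrays, against 0.29, 0.32 and 0.39 in wild-type arrays (exact two-sided permutation p = 0.9). For Gapdh it was 0.01, 0.12 and 0.22 in knockout arrays, against 0.05, 0.06 and 0.23 in wild-type arrays (exact permutation p = 1.0). The smallest p that 3 against 3 arrays can give is 0.1. In each gene the distances overlapped between the genotypes, and the arrays differed more within a genotype than the genotypes did.

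None of the 5 other actin isoforms passed the threshold. Actg1, the γ-actin that non-muscle cells make beside β-actin, read 13.33, 13.30 and 13.31 in knockout arrays, against 13.33, 13.23 and 13.30 in wild-type arrays (difference 0.03, SE 0.06, adjusted p = 0.923). Actg2, the smooth muscle γ-actin, was at 7.33, 7.19 and 7.16 in the knockout, against 6.53, 5.82 and 6.70 in wild type. Its genotypes did not overlap, but the difference of 0.87 (SE 0.21) did not pass (adjusted p = 0.197). The remaining isoforms, Acta1, Acta2 and Actc1 of muscle, overlapped between the genotypes.

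Among the activators of branching, Was and Wasf2 differed little. Was, the WASP gene whose loss causes Wiskott-Aldrich syndrome, read 10.75, 10.70 and 10.73 in knockout arrays, against 10.79, 10.75 and 10.83 in wild-type arrays. The arrays overlapped, and the difference was -0.06 (SE 0.06, 95% interval -0.21 to 0.09). Was lies close to Hdac6 on the X chromosome, and is among the 10 measured genes nearest to it. Of these 10, chosen after values were seen, 6 were higher and 4 lower, and none passed (lowest adjusted p = 0.293). Wasf2 read 10.47, 10.50 and 10.37 in the knockout, against 10.52, 10.44 and 10.42 in wild type, a difference of -0.01 (SE 0.07) whose sign turned in 3 of 15 alternatives.

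Arpc2, a subunit that holds the ARP2/3 complex together and contacts the mother filament, showed a small separation. It read 13.00, 12.99 and 12.99 in knockout arrays, against 13.11, 13.08 and 13.03 in wild-type arrays. All 3 knockout arrays were lower than any wild-type array, and the difference was -0.07 (SE 0.06, 95% interval -0.22 to 0.07). Of the other ARP2/3 genes listed, 5 of 9 were measured, 1 higher and 4 lower, and 0 passed. Actr3, an actin-related core subunit, differed by -0.08 (SE 0.08, adjusted p = 0.755) and Arpc1a by 0.16 (SE 0.07, adjusted p = 0.485). Actr2 had no probe set naming it alone.

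Cfl1 encodes cofilin, which severs old filaments and returns monomers. Its 2 probe sets disagreed in sign. Probe set 1448346_at read 11.82, 11.81 and 11.73 in the knockout, against 11.69, 11.52 and 11.77 in wild type, a difference of 0.13 (SE 0.08) with overlap. Probe set 1455138_x_at read 12.87, 12.86 and 12.88 in the knockout, against 12.90, 12.89 and 12.92 in wild type. It was lower in every knockout array by a mean of only 0.03 (SE 0.06). An x_at set can share sequence with other transcripts, and cofilin has processed pseudogenes.

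Coro1a encodes coronin 1A, which binds filaments and the ARP2/3 complex and which T cells need to survive and migrate. The brightest of its 3 probe sets, 1416246_a_at, read 13.24, 13.23 and 13.21 in knockout arrays, against 13.25, 13.24 and 13.22 in wild-type arrays, an overlap with a difference of -0.01 (SE 0.06). The next, 1455269_a_at, also overlapped (-0.05, SE 0.06). The dimmest, 1435288_at, read 9.05, 9.22 and 9.02 in the knockout, against 8.82, 8.72 and 8.98 in wild type. Its knockout arrays were all higher, with a difference of 0.26 (SE 0.09). As with Actb and Cttn, the probe set that separated the genotypes upward was not the brightest of its gene.

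Capg caps the fast-growing ends of filaments and belongs to the gelsolin family. It has 1 probe set, which read 10.47, 10.26 and 10.32 in knockout arrays, against 10.17, 10.14 and 9.98 in wild-type arrays. Every knockout array was higher, and the difference was 0.25 (SE 0.09, 95% interval 0.05 to 0.46). In the alternatives it stayed between 0.19 and 0.30. Of 15 other gelsolin-family and capping genes all were measured, 6 higher and 9 lower, and 0 passed. Scin, the filament-severing scinderin, was higher in each knockout array, at 6.01, 5.21 and 4.79, against 4.48, 4.61 and 4.76 in wild type. Its knockout arrays were widely spread, and the difference of 0.72 (SE 0.28) did not pass (adjusted p = 0.403). Without knockout replicate 1 the Scin difference was 0.39.

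Rhoa encodes the small GTPase that turns on formins and ROCK to make and tighten unbranched filaments. Its brighter probe set, 1437628_s_at, read 10.74, 10.54 and 10.45 in the knockout, against 10.73, 10.69 and 10.60 in wild type, a difference of -0.09 (SE 0.09). The other, 1450632_at, read 10.30, 9.88 and 9.36 in the knockout, against 10.21, 10.15 and 9.76 in wild type. Both overlapped. In 1450632_at, the arrays of 1 genotype differed by more (SD 0.47 in knockout and 0.25 in wild type, n = 3 each) than the genotypes did (-0.20, SE 0.24, 95% interval -0.76 to 0.36). Pearson's r between the 2 probe sets was 0.96 over the 6 arrays. For 1450632_at leaving out 1 array gave values between -0.42 and 0.04.

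Probe sets of Rhoa, and 1 each of Coro1a, Actb and Wasf2, tended lower in arrays with a larger Gapdh 3′ minus 5′ distance. The brightest Cttn probe set tended higher in such arrays. For 1450632_at, Pearson's r over the 6 arrays was -0.92 (exact permutation p = 0.00833, adjusted p = 0.175 over the 21 probe sets compared) and Spearman's rank correlation was -0.94 (exact permutation p = 0.0167, adjusted p = 0.35). Without the 2 arrays farthest from the median distance, replicate 3 of each genotype, r was -0.99 over 4 arrays. For 1437628_s_at r was -0.84 (exact permutation p = 0.0528, adjusted p = 0.369) and the rank correlation was -0.83 (exact permutation p = 0.0583, adjusted p = 0.408). Coro1a 1416246_a_at had r of -0.90 (exact permutation p = 0.025, adjusted p = 0.263) and a rank correlation of -0.77 (exact permutation p = 0.103, adjusted p = 0.432), and without the same 2 arrays r was -0.65. Actb 1436722_a_at had r of -0.67 (exact permutation p = 0.0944, adjusted p = 0.397) and a rank correlation of -0.83, and without those arrays r was -0.30. Wasf2 1454673_at had r of -0.70 (exact permutation p = 0.128, adjusted p = 0.447), and without those arrays r was 0.20. Cttn 1423917_a_at went the other way, with r of 0.76 (exact permutation p = 0.0833, adjusted p = 0.397), and without those arrays r was -0.02. The dimmer Cttn 1421314_at had r of -0.42 and a rank correlation of -0.77 (exact permutation p = 0.103, adjusted p = 0.432). Without those arrays its r was -0.97. Cttn 1433908_a_at had r of -0.37 and a rank correlation of -0.66 (exact permutation p = 0.175, adjusted p = 0.459), and without those arrays r was -0.81. None of the 21 relations passed after adjustment. Within 1 genotype the 3 arrays are too few for a value. The Pstpip2 probe sets had r between 0.00 and 0.10 with the same distance, and Actb 1419734_at had 0.07.

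**Figure D4:**
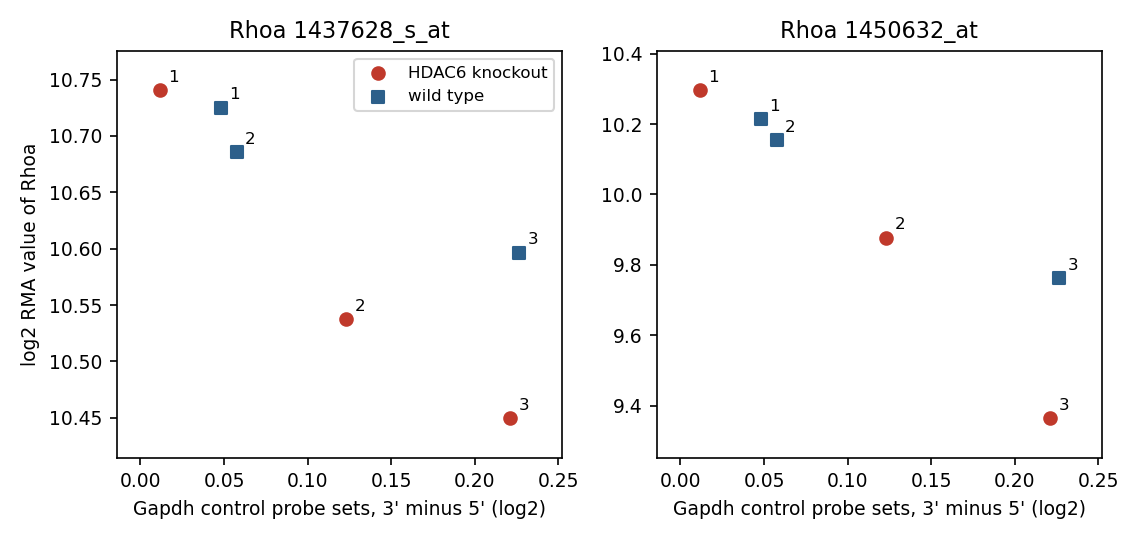
Log2 RMA value of the 2 Rhoa probe sets (vertical axes) against the Gapdh 3′ minus 5′ control distance in log2 units (horizontal axes), with 1 point per array labelled by replicate number; circles are HDAC6 knockout and squares wild type. Arrays with a larger distance read lower for Rhoa in both genotypes, and the genotypes overlap on both axes.

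The wider actin machinery was read from 169 further genes listed by role, of which 137 had a probe set naming them alone. Each was represented by its brightest probe set. By limma over 12393 genes 0 of the 137 passed an adjusted p of 0.05, beside 0.161% of all genes, and 13 (9.49%) had an unadjusted p under 0.05, beside 11.2% of all genes. The genotypes did not overlap for 31 of them (22.6%), beside 18.6% of all genes. They were divided between 63 higher and 74 lower, with a median difference of -0.01 against 0.00 over all genes. The median size was 0.07, against 0.09 over all genes.

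By role, nucleation promoting factors and cortactin relatives had 2 of 11 measured genes higher and 9 lower, with a median of -0.07. Wasl, the widely expressed relative of Was, differed by -0.09 (SE 0.07, adjusted p = 0.662), and Wipf1, the partner that stabilises WASP, by -0.20 (SE 0.10, adjusted p = 0.532). A dimmer Wasl probe set, 1426777_a_at, was lower in every knockout array, by a difference of -0.27 (SE 0.08). Wasl 1426776_at and 1432155_at differed by -0.09 and 0.11, both with overlap. Rac1, Rac2 and Cdc42, which signal to WAVE and WASP, differed by 0.03, -0.08 and -0.05 (lowest adjusted p = 0.680 among these 3). A dimmer Cdc42 probe set, 1415724_a_at, was lower in every knockout array (-0.21, SE 0.10), while 1435807_at overlapped (-0.09, SE 0.10). Formins had 4 of 10 measured, 2 higher and 2 lower, with Diaph1, a RhoA effector, at -0.17 (SE 0.07, adjusted p = 0.404).

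The largest difference in the wider list was that of Cap2, a cyclase-associated protein that helps cofilin recycle actin. It read 3.81, 4.20 and 4.16 in knockout arrays, against 4.92, 5.26 and 5.52 in wild-type arrays. The genotypes did not overlap and its other probe set differed by the same -1.18, yet it did not pass (SE 0.17, adjusted p = 0.076). It lay near the arrays' lower quartile in the knockout. Cap1, its widely expressed relative, was set by 1 array: wild type replicate 1 read 11.86, and the other 5 arrays read 9.80 to 10.03. The difference of -0.64 (SE 0.49, adjusted p = 0.680) rests on that array.

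Among crosslinkers and bundlers 7 of 14 were higher and 7 lower, with the largest median size of difference of any of these lists (0.24). Fscn1, the fascin that bundles filaments in protrusions, differed by 0.70 (SE 0.22, adjusted p = 0.314), and Marcksl1, which ties filaments to the membrane, by 0.60 (SE 0.16, adjusted p = 0.215), each without overlap. For Fscn1 the mean of all its probe sets gave 0.35. Actn1, an α-actinin, differed by -0.36 (SE 0.13, adjusted p = 0.377) at its brightest probe set, but its 2 other probe sets differed by 0.11 and 0.09, and the mean of all 3 by -0.06. Monomer-binding and elongation genes had 3 of 7 higher and 4 lower. Pfn1, the profilin that feeds monomers to growing ends, differed by 0.00 (SE 0.08, adjusted p = 0.997) and Evl, an elongation factor of blood cells, by -0.26 (SE 0.08, adjusted p = 0.289).

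**Figure D5:**
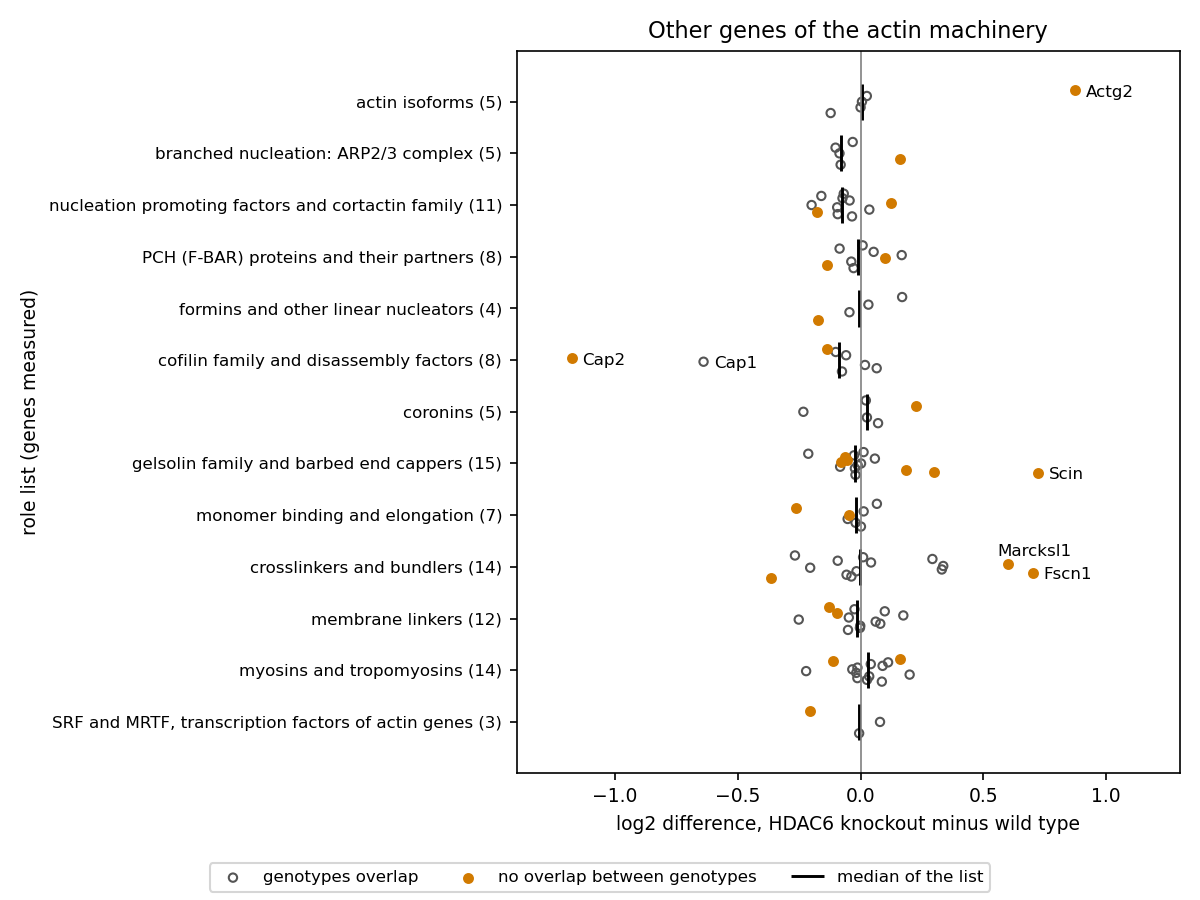
Log2 difference, HDAC6 knockout minus wild type (horizontal axis), of 111 of the 137 other actin genes, grouped by role in 13 lists (rows, with the number measured); filled points are genes whose genotypes do not overlap, open points overlap, and ticks are list medians. The list medians lie close to 0 and 6 genes beyond 0.55 in size are named, none of which passed the threshold.

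Many actin genes are controlled by SRF, a transcription factor that binds a DNA element called the CArG box, and whose partners MRTF-A and MRTF-B sense free actin monomers. Srf itself differed by -0.01 (SE 0.09, adjusted p = 0.989) at its brightest probe set. A dimmer Srf probe set, 1418256_at, was higher in every knockout array, by 0.16 (SE 0.07, adjusted p = 0.475 over probe sets). Mrtfa differed by 0.08 (SE 0.08, adjusted p = 0.759) and Mrtfb by -0.20 (SE 0.09, adjusted p = 0.439). RefSeq promoter windows (GRCm38.p6, 250 bases before to 50 after the start) were searched for the box on both strands. Windows were matched for 7 of the 10 genes, Arpc2, Wasf2, Capg, Coro1a, Rhoa, Cfl1 and Was, and 0 of these held it, which says only that its letters are not in those windows. It was present for 14 of 145 other actin genes (9.66%), against 488 of 27025 genes (1.81%). Stretches of 3 such windows, picked for the box and not for a difference, show it in capitals in the genes of γ-actin (chr11:120348536-120348625, minus strand), of SRF itself (chr17:46556175-46556284, minus strand) and of the adhesion protein vinculin (chr14:20929148-20929220, plus strand).
Actg1: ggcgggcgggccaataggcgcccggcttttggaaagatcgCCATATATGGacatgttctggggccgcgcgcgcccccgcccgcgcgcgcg
Srf: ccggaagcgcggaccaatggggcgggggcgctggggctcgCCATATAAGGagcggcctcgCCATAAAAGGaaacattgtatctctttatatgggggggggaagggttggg
Vcl: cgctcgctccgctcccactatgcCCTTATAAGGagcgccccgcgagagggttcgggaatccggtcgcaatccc
All 14 genes with a box were measured, 8 higher and 6 lower in the knockout between -0.39 and 0.38, with a median of 0.01, and 0 passed (lowest adjusted p = 0.403; 2 at an unadjusted p under 0.05). A match is a description of the letters and not of binding.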

How the data were processed

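The deposited table holds log2 values made by the authors with RMA, per the submitters' processing notes, which give no version. The log2 scale was taken from the range of values, and no further normalization was applied. RMA sets all arrays to 1 distribution and compresses differences at the low end of the scale. The 64 control probe sets stayed out of the tests and 22626 were fitted in R 4.3.3 by lmFit and eBayes of limma 3.58.1, with genotype as the sole term, Benjamini-Hochberg adjustment and a threshold of 0.05. Names came from the platform annotation, of which 20380 probe sets carried 1 symbol, 691 several and 1555 none, updated by gene ID through RefSeq (20351 matched). For the wider list the probe set of highest mean over the arrays stood for each gene, which left 12393 genes, over which p-values were adjusted anew.

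The members and gene lists were chosen with earlier results of these data known. Every member probe set is given. Of the other actin genes, those past the threshold, up to 3 of each role list with the smallest p, and Hcls1, Pstpip1, Wasl, Actg1, Actr2, Actr3, Rac1, Rac2, Cdc42 and Pfn1 were eligible for naming, together with the 3 genes most like Cttn and Pstpip2. Cell type marker lists covered T cells and Treg, CD8 T cells, NK and innate-like lymphocytes, B cells, plasma cells, granulocytes and monocytes, macrophages and dendritic cells, and erythroid cells and platelets. Control probe set distances were compared by exact permutation over arrays with scipy 1.17.1. The fit was tested on simulated data. Counts of 2 role lists are not reported here. Replicates are samples the design text calls independent. The limma p-values set each difference against the spread between samples of a genotype, moderated over all probe sets. The number of arrays limits the precision. Neither detection calls nor scan dates were used, so batches were not tested. Same-numbered arrays did not deviate together in every pair (r = 0.22, -0.09 and 0.10), so numbers were not taken as pairs. Figures were drawn with matplotlib 3.10.9.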

Additional observations from a re-analysis of the deposited data

How the results depend on the processing

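The fit was repeated with array weights, without moderation, with trend and robust settings of eBayes, with a replicate block, after quantile normalization or centring on medians, with dim probe sets left out or control probe sets kept, with other ways to represent a gene, at other thresholds, and without each array in turn. Of all probe sets 44 passed in the main fit. The replicate block gave 27, trend and robust settings 147, array weights 86, the unmoderated test 0 and an adjusted p under 0.1 gave 121, and leaving out 1 array gave 5 to 51. Of the 21 member probe sets 2 passed. The replicate block and the unmoderated test gave 0, a mean log2 value of at least 6, which leaves out every Pstpip2 probe set, gave 1, trend and robust settings and an adjusted p under 0.1 gave 3, and leaving out 1 array gave 0 to 3. Of the other actin genes 0 passed. The replicate block, quantile normalization, trend and robust settings and an adjusted p under 0.1 each gave 1, which was Cap2 (adjusted p = 0.040, 0.045, 0.023 and 0.076 over genes), and leaving out 1 array gave 0. The 3′ minus 5′ differences between genotypes stayed between -0.03 and 0.04 for Actb and between -0.04 and 0.07 for Gapdh. No called difference turned its direction. The cause of these moves was not tested. Dim probe sets of Cttn and Pstpip2 limit what a difference can show. Saturation of the bright Actb probe sets was not tested.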

Other observations

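Cap1 stood out in wild type replicate 1 at both of its probe sets: 1417462_at read 8.90, 8.60 and 8.19 in knockout arrays, against 10.62, 8.73 and 8.54 in wild-type arrays. All 4 probe sets of Marcksl1 separated the genotypes, with all knockout arrays above all wild-type arrays, by 0.46 to 0.69, and none passed over probe sets (lowest adjusted p = 0.117). Over 280 probe sets of the other actin genes 0 passed (lowest adjusted p = 0.073). B cell markers had 4 of 7 measured genes higher and 3 lower, CD8 T cell markers 1 of 2 higher, and erythroid and platelet markers 2 of 4 higher, and 0 of these passed by limma. The B cell genes were unlike in size. Ms4a1 differed by -1.13 (SE 0.29) without overlap, Blk by -0.63 and Cd79b by -0.32 with overlap, and the 4 higher genes by 0.12 to 0.29. Cd8b1 differed by -0.37 and Cd8a by 0.25, each without overlap.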
